A study of Mus musculus with 8 samples.

Results

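The hepatic bile acid and anion uptake carriers are the transporters that bring bile acids, bilirubin, steroid conjugates, drugs and other organic anions from portal blood into the hepatocyte. The 6 genes chosen by name were Slc10a1, Slco1a1, Slco1a4, Slco1b2, Slco2b1 and Slc22a7, out of 16593 genes on the array. They were measured by 8 probes, and 5 of the 6 passed the filter on dim probes and were tested among 9766 genes; Slco1a1 did not pass it. Liver RNA of male mice aged 10 to 12 weeks was hybridised to Illumina bead arrays, each array carrying a pool of 3 to 4 animals. The groups were Fxr-/- mice given GW4064 (2 arrays), Fxr-/- mice given vehicle (1 array used), Fxr+/+ mice given GW4064 (2 arrays) and Fxr+/+ mice given vehicle (2 arrays), with GW4064 at 30 mg/kg gavaged 2 times a day over 7 days. GW4064 is a synthetic agonist of FXR, the nuclear receptor for bile acids encoded by Nr1h4, and Fxr-/- marks the mice labelled as lacking that gene. The strain, the deleted part of the gene and the make-up of the vehicle are not given in the sources used here. The study set out to find liver genes under the control of FXR.

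Hepatocytes take up conjugated bile acids mainly through NTCP, the sodium-dependent cotransporter encoded by Slc10a1. Unconjugated bile acids, bilirubin and many drugs enter through the sodium-independent organic anion transporting polypeptides (OATPs), encoded by the Slco genes, and smaller organic anions through OAT2, encoded by Slc22a7. In rodents, bile acids acting through FXR and its target SHP (Nr0b2) are known to repress Slc10a1, which limits further uptake when bile acids are plentiful.

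All values below are the deposited array signals, which are background-subtracted, so a signal can be negative. The most negative signal on any array had a size of 39.5, and a group with all of its arrays under 39.5 for a probe is described as within the background range. Differences and tests are on the scale log2(signal + 16), with negative signals set to 0, from a limma fit of the 7 arrays, and a gene was called at a Benjamini-Hochberg adjusted p under 0.05 over the 9766 genes. The single Fxr-/- vehicle array is given the spread of the other groups, and p-values measure only the spread between pools, which may be technical. Groups of so few arrays often separate. All Fxr-/- arrays lay below all Fxr+/+ arrays for 25.3% of the genes tested under GW4064 and 37.8% under vehicle. In bulk liver RNA, fewer hepatocytes and less RNA per hepatocyte cannot be told apart. The Nr1h4 probe kept a signal under the Fxr-/- label, with readings of 2048.3 and 1851.9 in Fxr-/- GW4064 and 3271.6 in Fxr-/- vehicle livers, against 3327.7 and 3483 in Fxr+/+ GW4064 and 3958.8 and 4411.4 in Fxr+/+ vehicle. Whether its probe lies within the deletion is not known here, so every genotype direction rests on the labels.

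Slco2b1 had the largest genotype difference of the 5 tested carriers, in the model of all 7 arrays and under either treatment. It encodes OATP2B1, a broad carrier of sulfated steroids and drugs. Its signal was 592.5 and 405.4 in Fxr-/- GW4064 livers and 714.2 in the Fxr-/- vehicle liver pool, against 7498.7 and 7158 in Fxr+/+ GW4064 livers and 6326.4 and 7764.1 in Fxr+/+ vehicle livers. The highest Fxr-/- pool, at 714.2, lay far below the lowest Fxr+/+ pool, at 6326.4. The log2 difference between Fxr-/- and Fxr+/+ was -3.86 under GW4064 (SE 0.237, 95% interval -4.41 to -3.31, limma adjusted p = 0.000157), a 14.5-fold lower level. Under vehicle the log2 difference was -3.27 (SE 0.290, 95% interval -3.94 to -2.59, limma adjusted p = 0.00126), a 9.62-fold lower level. With all 7 arrays in a model adjusted for treatment it was -3.62 (SE 0.199, limma adjusted p = 1.73e-05). GW4064 made no called difference within either genotype label: -0.53 in Fxr-/- (SE 0.290, 95% interval -1.20 to 0.15) and 0.06 in Fxr+/+ (95% interval -0.49 to 0.62).

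The promoter windows of Slco2b1 are shown because this gene separates the genotype labels most widely. They are the 250 bases before an annotated transcript start, 5′ to 3′ on the minus strand, from RefSeq with the GRCm38.p6 assembly, and matches to the motifs searched are in capitals. The first window precedes the outermost start (chr7:99711341-99711590), and the second an internal start (chr7:99695810-99696059). Another window of this gene, before a start between these (chr7:99706843-99707092), held no match and is not printed.
Slco2b1 outermost start: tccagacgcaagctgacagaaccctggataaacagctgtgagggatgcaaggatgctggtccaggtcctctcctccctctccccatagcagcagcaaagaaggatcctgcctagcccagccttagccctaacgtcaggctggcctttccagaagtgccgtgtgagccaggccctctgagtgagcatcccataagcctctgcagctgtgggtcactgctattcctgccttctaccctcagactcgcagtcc
Slco2b1 internal start: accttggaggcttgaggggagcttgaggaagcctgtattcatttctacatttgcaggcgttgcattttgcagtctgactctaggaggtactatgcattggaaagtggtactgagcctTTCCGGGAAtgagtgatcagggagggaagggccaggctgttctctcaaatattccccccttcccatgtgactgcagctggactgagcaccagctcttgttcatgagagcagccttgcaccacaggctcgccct
The capitals in the second window mark TTCCGGGAA, a match to the STAT pattern TTCNNNGAA that begins 133 bases before the start. The window of the outermost start held none of the 4 patterns searched on both strands: AGGTCA (the nuclear receptor half-site), AGGTCANTGACCT (the inverted repeat bound by FXR with its partner RXR, which contains the half-site), TTCNNNGAA and GTTAAT (an HNF1 half-site). Over all 32841 windows of this length in the table, 14% held AGGTCA, 7.02% TTCNNNGAA, 6.43% GTTAAT and 0.00609% the inverted repeat. No window of the 5 carriers that had one held the inverted repeat, which says only that these letters are not in these windows. Slc22a7 had no window to search.

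Slc10a1, encoding NTCP, was lower in Fxr-/- than in Fxr+/+ livers under GW4064. Its signal was 49.8 and 22.2 in Fxr-/- GW4064 livers and 79.2 in the Fxr-/- vehicle pool, against 108.4 and 88.7 in Fxr+/+ GW4064 livers and 119.8 and 141.6 in Fxr+/+ vehicle livers. The 4 groups formed a sequence without overlap, lowest in Fxr-/- GW4064 and highest in Fxr+/+ vehicle, and 1 of the 2 Fxr-/- GW4064 arrays was under 39.5. Under GW4064 the log2 difference between the genotype labels was -1.19 (SE 0.281, 95% interval -1.84 to -0.53, limma adjusted p = 0.0299). Without Fxr-/- GW4064 replicate 2 it was -0.79 with an adjusted p of 0.124, and without Fxr+/+ GW4064 replicate 1 or replicate 2 the limma adjusted p was 0.164 and 0.105. Under vehicle the difference was -0.62 (SE 0.345, 95% interval -1.42 to 0.18, limma adjusted p = 0.316). Adjusted for treatment it was -0.96 (SE 0.227, limma adjusted p = 0.0176), with adjusted p of 0.0613 and 0.0580 without Fxr+/+ GW4064 replicate 1 or replicate 2.

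GW4064 against vehicle gave Slc10a1 log2 differences below 0 in both genotype labels, and neither passed. The value was -0.93 in Fxr-/- (SE 0.345, 95% interval -1.73 to -0.12, unadjusted p = 0.0292 by limma, limma adjusted p = 0.434) and -0.36 in Fxr+/+ (SE 0.281, 95% interval -1.01 to 0.30). Adjusted for genotype it was -0.59 (SE 0.227, limma unadjusted p = 0.0323, adjusted p = 0.576). The difference between the 2 effects was -0.57 (95% interval -1.60 to 0.47, limma adjusted p = 0.940). Nr0b2, the SHP gene, could not be read beside it, since its probe lay between -25.3 and -5.1 on all 7 arrays. Each GW4064 comparison shares arrays with the genotype comparisons, so the Fxr-/- GW4064 arrays enter both.

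**Figure D1:**
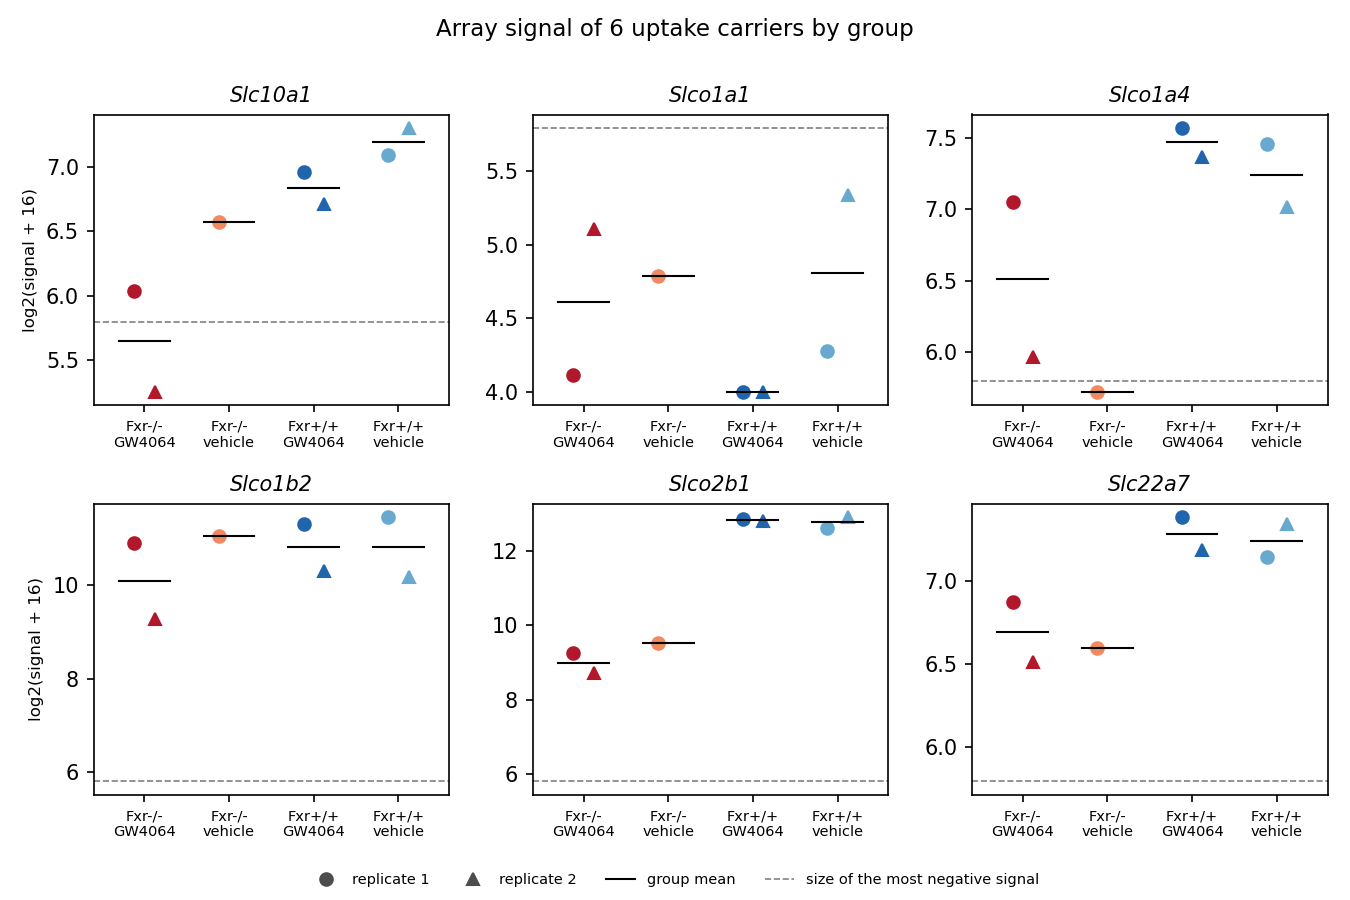
Array signal of the 6 carriers as log2(signal + 16), in a panel each, for the Fxr-/- GW4064, Fxr-/- vehicle, Fxr+/+ GW4064 and Fxr+/+ vehicle groups from left to right. Circles are replicate 1, triangles replicate 2, black bars group means, and the dashed line marks a signal of 39.5; Slco2b1 separates the genotype labels, and Slco1a1 lies under the dashed line on every array.

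The promoter window of Slc10a1 is shown for the carrier that FXR is known to act on. It is the 250 bases before the outermost annotated start (chr12:80968706-80968955, minus strand, 5′ to 3′, RefSeq with GRCm38.p6).
Slc10a1 outermost start: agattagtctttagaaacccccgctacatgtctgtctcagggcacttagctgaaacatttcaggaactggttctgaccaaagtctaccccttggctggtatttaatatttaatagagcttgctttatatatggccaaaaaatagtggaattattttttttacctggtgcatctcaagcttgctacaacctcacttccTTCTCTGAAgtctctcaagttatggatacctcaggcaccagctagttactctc
The capitals mark TTCTCTGAA, a match to the STAT pattern 53 bases before the start. In rat, STAT5 is known to activate this gene after prolactin. A second annotated start of Slc10a1 had AGGTCA 87 bases before it. Of the 8 windows that the table holds for 5 of the 6 carriers, 5 held at least 1 match.

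Slco1a4 encodes OATP1A4, a carrier of bile acids and cardiac glycosides that is inducible through PXR in mouse liver. Its signal was 116.5 and 46.6 in Fxr-/- GW4064 livers and 36.7, within the background range, in the Fxr-/- vehicle pool. It was 174.4 and 149.1 in Fxr+/+ GW4064 livers and 160.1 and 113.8 in Fxr+/+ vehicle livers. The groups separated within each treatment, but 1 Fxr-/- array given GW4064 lay above 1 Fxr+/+ array given vehicle. Adjusted for treatment, the log2 difference was -1.18 (SE 0.276, 95% interval -1.82 to -0.55, limma adjusted p = 0.0164), so Slco1a4 was called lower in Fxr-/-. Neither treatment alone gave a call, at -0.96 under GW4064 (SE 0.353, limma adjusted p = 0.118) and -1.52 under vehicle (SE 0.432, limma adjusted p = 0.0810). The Fxr-/- vehicle array was within the background range. Set to the upper limit of that range, it gave an "at least" fold of 3.42 below Fxr+/+ vehicle. That figure takes no account of the spread between pools. The 95% interval of the log2 difference under vehicle was wide, from -2.53 to -0.51, so the size of this uncalled difference is uncertain. With the replicate number as a block, limma adjusted p was 0.0362 under GW4064 (log2 difference -0.96) and 0.0196 under vehicle (-1.81). Leaving out Fxr-/- GW4064 replicate 1 moved the difference under GW4064 to -1.50 with a limma adjusted p of 0.0243. The response to GW4064 was 0.79 in Fxr-/- (95% interval -0.22 to 1.80) and 0.23 in Fxr+/+ (95% interval -0.59 to 1.05), without a call.

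Slco1b2 encodes OATP1B2, the main mouse liver carrier of unconjugated bile acids and bilirubin. Its signal was 1896 and 609.5 in Fxr-/- GW4064 livers and 2133.1 in the Fxr-/- vehicle pool, against 2534.3 and 1258.3 in Fxr+/+ GW4064 livers and 2821.4 and 1139.7 in Fxr+/+ vehicle livers. The arrays split by replicate number rather than by group: the 4 arrays numbered 1 read 1896 or more and the 3 arrays numbered 2 read 1258.3 or less. The log2 difference between replicates 1 and 2 was 1.61 in Fxr-/- GW4064, 1.00 in Fxr+/+ GW4064 and 1.30 in Fxr+/+ vehicle. In size these lay at the 99.5th, 98.4th and 98.9th percentile of the 9766 genes. Over the same genes the replicate differences of different groups correlated at r = 0.233 to 0.375, so same-numbered arrays deviated together, and what the numbers stand for is not given in the labels.

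Between the genotype labels, Slco1b2 was not called without the replicate number in the model. The log2 difference was -0.72 under GW4064 (SE 0.617, 95% interval -2.16 to 0.72, limma adjusted p = 0.490) and 0.25 under vehicle (SE 0.756, 95% interval -1.51 to 2.01, limma adjusted p = 0.875). With the replicate number as a block it was -0.72 under GW4064 (limma adjusted p = 0.0487), -0.40 under vehicle (limma adjusted p = 0.342) and -0.60 adjusted for treatment (SE 0.159, limma adjusted p = 0.0295), so that 2 of these 3 comparisons passed with the block. Within replicate 1, every Fxr-/- array lay below every Fxr+/+ array, at 1896 and 2133.1 against 2534.3 and 2821.4. Within replicate 2, the Fxr-/- array at 609.5 lay below 1258.3 and 1139.7 in Fxr+/+. The share of all genes that separate so within a replicate number was not counted, so this order is only a description.

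**Figure D2:**
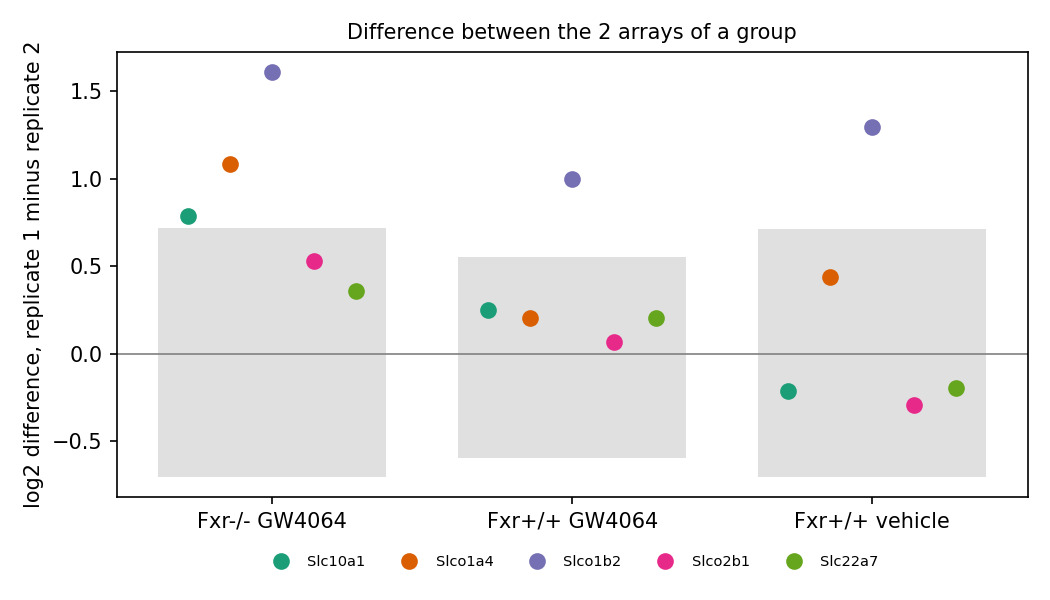
Log2 difference between replicates 1 and 2 for 5 carriers in the 3 groups with 2 arrays, with the grey band spanning the 5th to the 95th percentile of the 9766 genes tested. Slco1b2 lies above the band in all 3 groups, at 1.61, 1.00 and 1.30, while Slc10a1 and Slco1a4 leave it in Fxr-/- GW4064.

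Slc22a7 encodes OAT2, a sodium-independent carrier of small organic anions and nucleotides. Its signal was 101.1 and 75.3 in Fxr-/- GW4064 livers and 80.9 in the Fxr-/- vehicle pool, against 151.1 and 129.3 in Fxr+/+ GW4064 livers and 125.5 and 146.1 in Fxr+/+ vehicle livers. All 3 Fxr-/- arrays lay below all 4 Fxr+/+ arrays. Within a treatment, 25.3% of all genes separated in this direction under GW4064 and 37.8% under vehicle. Adjusted for treatment the log2 difference was -0.61 (SE 0.154, 95% interval -0.97 to -0.26, limma adjusted p = 0.0222), a 1.53-fold lower level. The value was -0.59 under GW4064 (SE 0.212, limma adjusted p = 0.111) and -0.64 under vehicle (SE 0.260, limma adjusted p = 0.180), neither of which passed. The adjusted call was lost when Fxr+/+ GW4064 replicate 1 or 2 or Fxr-/- GW4064 replicate 2 was left out, with limma adjusted p of 0.0764, 0.0529 and 0.0575. GW4064 against vehicle gave 0.09 in Fxr-/- (95% interval -0.51 to 0.70) and 0.04 in Fxr+/+ (95% interval -0.45 to 0.54).

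Slco1a1 encodes OATP1A1, a carrier that is male-predominant in mouse liver. Its probe read 1.3 and 18.5 in Fxr-/- GW4064 livers and 11.6 in the Fxr-/- vehicle pool, against -1.9 and -2.2 in Fxr+/+ GW4064 livers and 3.4 and 24.4 in Fxr+/+ vehicle livers. All 7 values lay within the background range, so no level or fold can be given. Slco1a4 and Slco1b2 each had a second probe, which read between -31.8 and -10.8 and between -29.2 and -14.3, and likewise carried no signal above background. Slco1b2, Slco1a4 and Slco1a1 are neighbours on chromosome 6, with Gm5724 between Slco1b2 and Slco1a4, whereas Slco2b1 lies on chromosome 7, Slc10a1 on chromosome 12 and Slc22a7 on chromosome 17. The paralogs are similar in sequence and the probe sequences were not used here, so cross-hybridisation among them was not tested.

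The carriers called were all called between the genotype labels, and none with GW4064. Adjusted for treatment, 4 of the 5 tested carriers were called, all lower, where 24.1% of all genes tested were called and 12.8% were called lower. The median log2 difference of the 5 tested carriers was -0.96 beside 0.06 over all genes. Under GW4064, 2 of 5 were called lower (Slc10a1 and Slco2b1), where 14.6% of all genes were called and 9.14% were called lower, and the median was -0.96 beside 0.08. Under vehicle, 1 of 5 was called lower (Slco2b1), where 6.85% of all genes were called and 5.00% were called lower, and the median was -0.64 beside 0.03. With the replicate block, 4 of 5 were called lower under GW4064, 2 of 5 under vehicle and 5 of 5 adjusted for treatment, where 11.5%, 6.50% and 14.8% of all genes were called lower. Beside such shares of all genes, 1 or 2 calls among 5 carriers are no result about the carriers as a group.

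GW4064 gave 0 calls among the 5 carriers in each of its comparisons in limma, where 0.0717% of all genes were called in Fxr-/-, 0.0205% in Fxr+/+ and 0.0717% adjusted for genotype. At an unadjusted p under 0.05 there was 1 of 5 carriers in Fxr-/- (Slc10a1), beside 9.78% of all genes. In Fxr+/+ there were 0 of 5, beside 5.06% of all genes, and adjusted for genotype 1 of 5 (Slc10a1), beside 7.89%. For the difference between the GW4064 effects, 0% of all genes were called. An unadjusted p under 0.05 was found for 0 of 5 carriers, beside 6.18% of all genes, and the carriers' values ran from -0.97 (Slco1b2) to 0.56 (Slco1a4). The intervals of the GW4064 effect on Slco1b2, -2.74 to 0.79 in Fxr-/- and -1.44 to 1.43 in Fxr+/+, leave a change of more than 2-fold in either direction within reach in Fxr+/+. As a gauge of the response to the agonist, Cyp7a1, which starts the main route of bile acid synthesis and is repressed through FXR, read 805 and 613.3 in Fxr-/- GW4064 livers against 3846.3 in Fxr-/- vehicle (log2 difference -2.43, limma adjusted p = 0.0603). It read 984.4 and 1001.8 in Fxr+/+ GW4064 against 7143.5 and 4933.9 in Fxr+/+ vehicle livers (-2.56, limma adjusted p = 0.0451). The difference between these 2 effects on Cyp7a1 was 0.13 (95% interval -0.77 to 1.04). Why Cyp7a1 read lower with GW4064 under the Fxr-/- label as well was not tested.

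**Figure D3:**
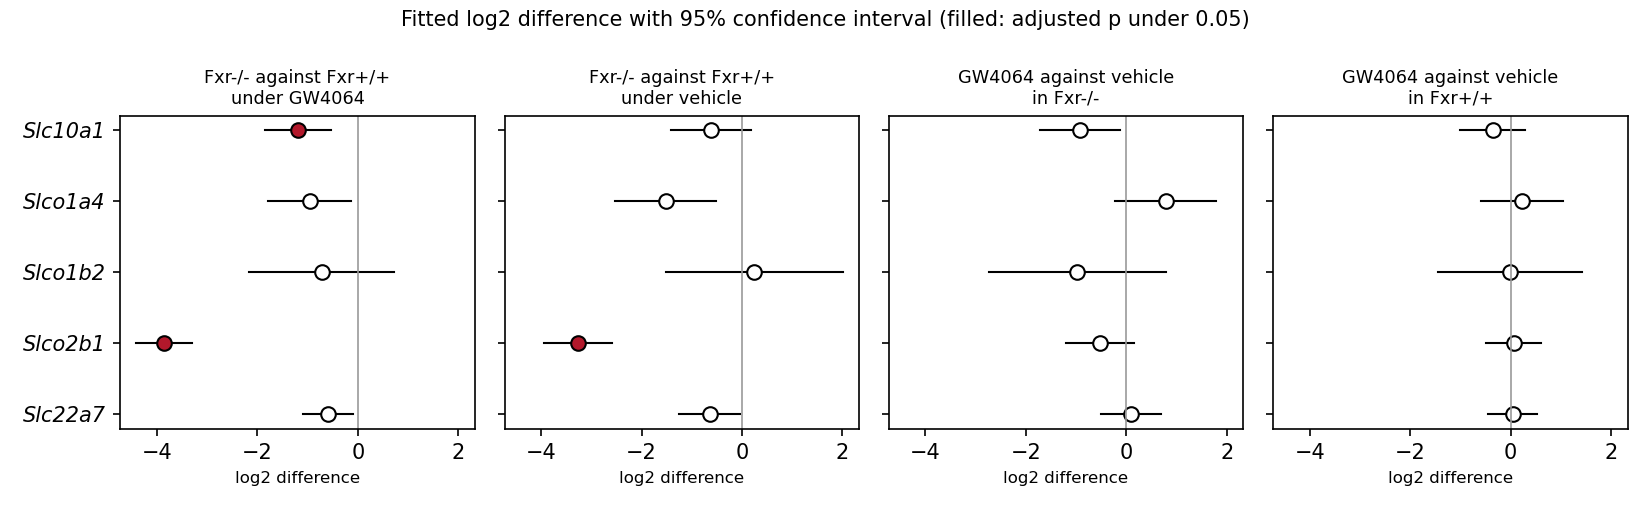
Log2 difference of the 5 tested carriers with 95% interval in 4 comparisons: Fxr-/- against Fxr+/+ under GW4064 and under vehicle, and GW4064 against vehicle in Fxr-/- and in Fxr+/+. Filled points passed an adjusted p under 0.05: Slc10a1 (-1.19) and Slco2b1 (-3.86) under GW4064 and Slco2b1 (-3.27) under vehicle.

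Several values moved with the Fxr-/- GW4064 arrays. Replicate 2 of that group was the lowest of the 7 arrays for Slc10a1, Slco1b2, Slco2b1 and Slc22a7 and ranked 2 from the lowest for Slco1a4. The summed signal of 12 hepatocyte markers was 207505 and 162719 in Fxr-/- GW4064 livers, 241012 in the Fxr-/- vehicle pool, 251234 and 270816 in Fxr+/+ GW4064 livers and 283555 and 267844 in Fxr+/+ vehicle livers. Bright probes weigh most in this sum. One of them, Serpina1e, read 16448.8 and 15337.1 in Fxr-/- GW4064 and 28210.1 in Fxr-/- vehicle livers. In Fxr+/+ it read 5502.6 and 17707.2 under GW4064 and 33237 and 32350.1 under vehicle. Of 11 hepatocyte markers tested, 9 had values below 0 in Fxr-/- against Fxr+/+ under GW4064 and 7 under vehicle. The medians were -0.37 beside 0.08 over all genes and -0.06 beside 0.03. Under GW4064, 3 were called lower (Apoa2, Serpina1a and Trf), where 9.14% of all genes were. Under vehicle, 1 was called lower (Serpina1a) and 1 higher (Fgb, within the background range), where 5.00% and 1.85% of all genes were. The probes of Tat and Fgb were within the background range on all arrays. Alb, which encodes serum albumin, read 81.6 to 168.7 over the 7 arrays.

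Over all genes tested, 9.14% were called lower in Fxr-/- under GW4064 and 5.00% under vehicle. Of the markers of other cells, most neutrophil genes were called lower in Fxr-/- under GW4064 and none under vehicle. Their summed signal over 8 genes was 353.9 and 280.1 in Fxr-/- GW4064 livers and 1035.6 in the Fxr-/- vehicle pool, against 3427.4 and 3565.7 in Fxr+/+ GW4064 and 3585.1 and 1453.1 in Fxr+/+ vehicle livers. Under GW4064, 7 of 7 tested had values below 0 and 6 were called lower in Fxr-/-, with S100a8 at -3.52 (limma adjusted p = 0.00261). Under vehicle 0 of 7 were called, with a median of -1.29, and Fxr+/+ vehicle replicate 2 lay nearer to the Fxr-/- vehicle pool than to the other Fxr+/+ arrays. Of 8 macrophage markers, 8 had values below 0 under GW4064 with a median of -0.88, and 1 was called lower (C1qa). Of 6 lymphocyte markers, 5 were below 0 under GW4064 with a median of -0.89, and 2 were called lower (Cd3e and Cd3g). Of the endothelial markers 13 of 13 had values below 0 under GW4064 with a median of -0.44, and 1 was called lower (Cdh5). Of 12 stellate markers, 9 were below 0 under GW4064 with a median of -0.30, and 1 was called lower (Timp1). Of 4 red blood cell markers 1 was called lower under each treatment (Alas2), with medians of -1.45 under GW4064 and -1.60 under vehicle. Bile duct and pancreatic acinar markers went the other way under GW4064. There 0 of 3 bile duct markers were below 0, with a median of 0.23, and 1 was called higher (Sox9). Of 4 pancreatic acinar markers, 0 were below 0 under either treatment, and 1 was called higher under each. Their medians were 0.23 under GW4064 and 0.87 under vehicle. Over all genes, 5.47% were called higher under GW4064 and 1.85% under vehicle. The part of these marker levels in the carrier differences was not tested.

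The genes whose signals tracked each carrier most closely over the 7 arrays are given as a description, since arrays of a group share their treatment and genotype label. Slco2b1 was followed by Aspdh (Pearson r = 0.999), Csrp3 (r = 0.998) and Mfsd2a (r = 0.998). Aspdh read 166.8 and 89 in Fxr-/- GW4064 and 160.5 in Fxr-/- vehicle livers, against 2891.8 and 2944.9 in Fxr+/+ GW4064 and 2786.5 and 3171.1 in Fxr+/+ vehicle livers. Mfsd2a, a lysophosphatidylcholine carrier, read 96 to 174.1 in the Fxr-/- arrays and 5049.1 to 6814.7 in the Fxr+/+ arrays. Csrp3 read 244.8 to 393.8 in the Fxr-/- arrays and 1772.4 to 2051.7 in the Fxr+/+ arrays. The labels did not overlap for any of these 3 genes, which were chosen for their likeness to Slco2b1.

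Slc10a1 was tracked by Gpr182 (r = 0.995), Tgfbr1 (r = 0.991) and Pon1 (r = 0.989). Pon1, a secreted paraoxonase made by the liver, read 6044.5 and 4060.5 in Fxr-/- GW4064 and 10312.2 in Fxr-/- vehicle livers, against 12384.8 and 11986.4 in Fxr+/+ GW4064 and 15034.6 and 15859.6 in Fxr+/+ vehicle livers, the same order of groups as Slc10a1. Slco1a4 was tracked by Ebi3 (r = 0.986), Fam234b (r = 0.981) and Cyp3a11 (r = 0.978). Cyp3a11, the classical PXR target among mouse P450 genes, read 16731 and 9153.2 in Fxr-/- GW4064 and 8399.5 in Fxr-/- vehicle livers, against 32796.8 and 30694.8 in Fxr+/+ GW4064 and 28760.9 and 19482.3 in Fxr+/+ vehicle livers. Nr1i2, which encodes PXR, read 884.5 to 1373.8 in the Fxr-/- arrays and 1015.8 to 1468.2 in the Fxr+/+ arrays, which overlap.

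Slc22a7 was tracked by Sult1a1 (r = 0.995), Acsm5 (r = 0.982) and Psmg2 (r = 0.982). Sult1a1, a phenol sulfotransferase, read 1386.6 to 2662.9 in the Fxr-/- arrays and 4595.7 to 6351.4 in the Fxr+/+ arrays. Slco1b2 was tracked by Timm21 (r = 0.992), Ireb2 (r = 0.990) and Man1a (r = 0.987), whose signals also split by replicate number. Man1a, a Golgi mannosidase, read 206.3 and 31 in Fxr-/- GW4064 livers and 216.5 in the Fxr-/- vehicle pool, against 240.3 and 103.8 in Fxr+/+ GW4064 and 302.8 and 65.2 in Fxr+/+ vehicle livers. Among the carriers themselves the closest pair was Slco2b1 and Slc22a7 (r = 0.938) and the least alike Slco1b2 and Slco2b1 (r = 0.343).

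Genes for proteins that hold carriers in the membrane or handle their ligands were called lower in part. Of 8 tested genes of this list, 5 were called lower in Fxr-/- under GW4064, 4 under vehicle and 5 adjusted for treatment, where 9.14%, 5.00% and 12.8% of all genes were. None was called higher, and Ephx1, Slc27a2 and Alb were not called in any of these comparisons. The medians were -1.42 beside 0.08 over all genes, -1.57 beside 0.03 and -1.48 beside 0.06. Pdzk1, the scaffold that keeps OATP1A1 at the sinusoidal membrane in mouse, read 94.8 and 41.7 in Fxr-/- GW4064 and 87 in Fxr-/- vehicle livers, against 1674.2 and 1855.9 in Fxr+/+ GW4064 and 2088.1 and 2433.6 in Fxr+/+ vehicle livers. Its log2 difference was -4.48 under GW4064 (limma adjusted p = 0.000225) and -4.46 under vehicle (limma adjusted p = 0.00109). Slc9a3r1, the related scaffold NHERF1, differed by -2.03 (limma adjusted p = 0.00296) under GW4064 and -2.49 (limma adjusted p = 0.00600) under vehicle.

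Slc27a5 and Baat, whose enzymes conjugate the bile acids taken up by the carriers, were called lower under both treatments. Slc27a5, which activates returning bile acids to their CoA esters, read 845.9 and 325.8 in Fxr-/- GW4064 and 855.2 in Fxr-/- vehicle livers, against 6254.6 and 6029.7 in Fxr+/+ GW4064 and 6703 and 8634.7 in Fxr+/+ vehicle livers. Its log2 difference was -3.50 under GW4064 and -3.13 under vehicle (limma adjusted p = 0.00163 and 0.0108). Baat, which joins the CoA esters to taurine or glycine, read 256.8 and 131.1 in Fxr-/- GW4064 and 226.3 in Fxr-/- vehicle livers, against 2358.2 and 2193.7 in Fxr+/+ GW4064 and 2979.7 and 2882.4 in Fxr+/+ vehicle livers. For both genes, all 3 Fxr-/- arrays lay below all 4 Fxr+/+ arrays, where 25.3% of all genes separated so within GW4064 and 37.8% within vehicle. Ttpa, the tocopherol transfer protein, was the fifth gene called under GW4064, at -0.80 (limma adjusted p = 0.0351).

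Of 13 tested regulators of the uptake carriers, 3 were called lower under GW4064 (Nr1h4, Nr1i3 and Ghr), 2 under vehicle (Nr1i3 and Hnf4a) and 5 adjusted for treatment (with Stat5a), and 0 higher, where 9.14%, 5.00% and 12.8% of all genes were called lower. The medians were -0.52 beside 0.08 over all genes, -0.35 beside 0.03 and -0.31 beside 0.06. Nr1i3, which encodes the xenobiotic receptor CAR, read 73.5 and 11.2 in Fxr-/- GW4064 and 51.9 in Fxr-/- vehicle livers, against 771.9 and 879.5 in Fxr+/+ GW4064 and 858.7 and 1240 in Fxr+/+ vehicle livers. Its log2 difference was -4.09 under GW4064 (limma adjusted p = 0.00210) and -3.95 under vehicle (limma adjusted p = 0.0106). Hnf4a, a master regulator of hepatocyte genes including several carriers, read 3033.3 and 3507.3 in Fxr-/- GW4064 and 2212.2 in Fxr-/- vehicle livers, against 4976.8 in each Fxr+/+ GW4064 array and 5437.2 and 5408.3 in Fxr+/+ vehicle livers. It differed by -1.29 under vehicle (limma adjusted p = 0.0167) and -0.88 adjusted for treatment (limma adjusted p = 0.00866). Ghr, the growth hormone receptor, differed by -0.83 under GW4064 (limma adjusted p = 0.0297). GW4064 itself gave 0 calls in this list and in the list of partners, in either genotype label.

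**Figure D4:**
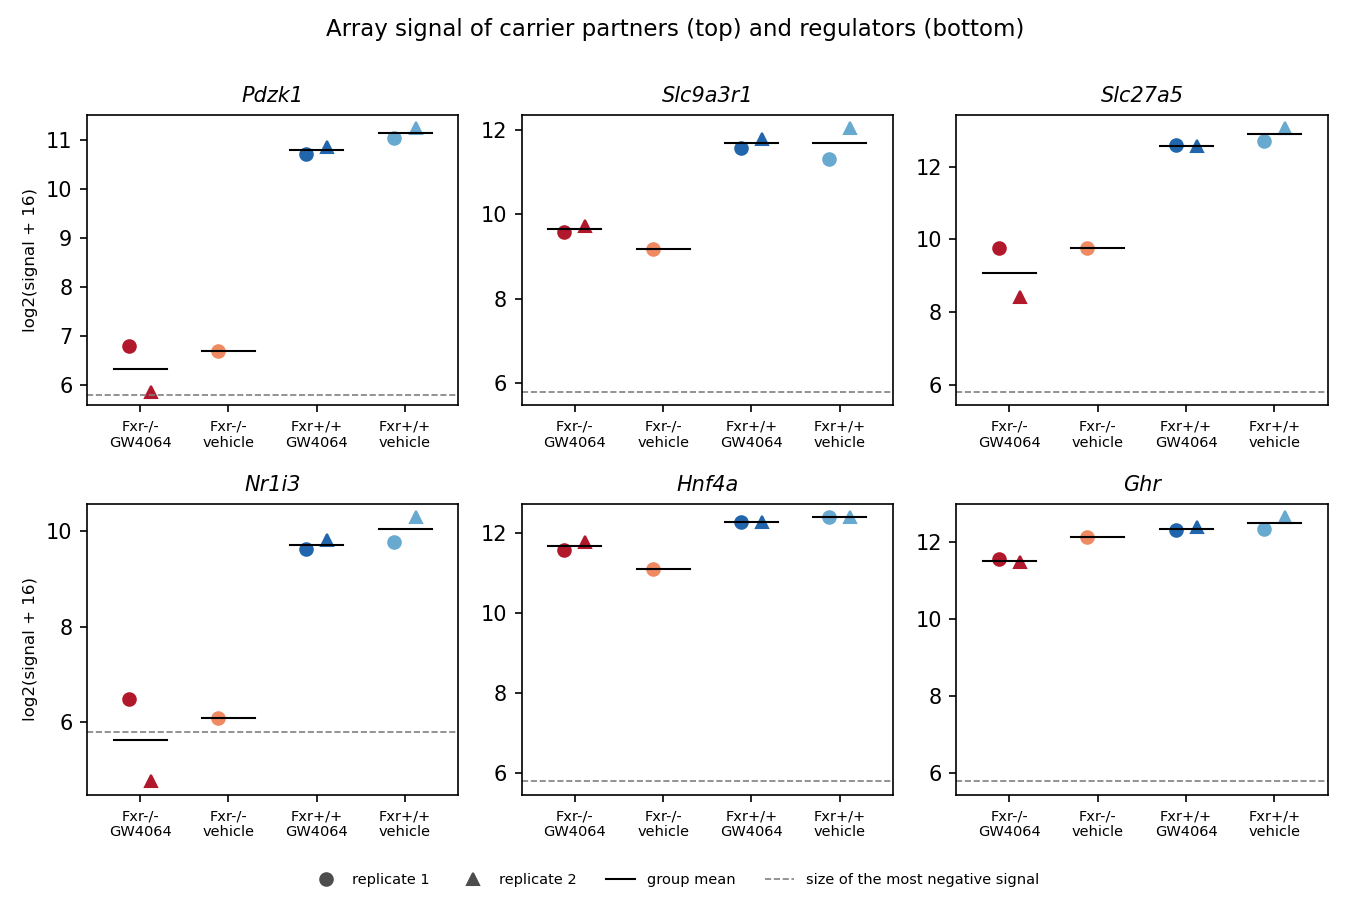
Array signal as log2(signal + 16) of 3 carrier partners and bile acid conjugation genes (Pdzk1, Slc9a3r1, Slc27a5) and 3 regulators (Nr1i3, Hnf4a, Ghr), with the Fxr-/- GW4064, Fxr-/- vehicle, Fxr+/+ GW4064 and Fxr+/+ vehicle groups from left to right. Circles are replicate 1, triangles replicate 2, bars group means and the dashed line a signal of 39.5. For each of the 6 genes all 3 Fxr-/- arrays lie below all 4 Fxr+/+ arrays. Within a treatment, 25.3% of all genes tested separated in this direction under GW4064 and 37.8% under vehicle.

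The other members of the carrier families did not share one direction. Of 3 tested other Slco genes (Slco2a1, Slco3a1 and Slco4a1) and 2 tested other Slc10 genes (Slc10a3 and Slc10a7), 0 were called in any comparison. Of 5 tested other Slc22 genes, 1 was called lower in Fxr-/- under each treatment (Slc22a18). It differed by -1.71 under GW4064 (limma adjusted p = 0.00559) and -1.67 under vehicle (limma adjusted p = 0.0233). Over all genes, 9.14% were called lower and 5.47% higher under GW4064, and 5.00% lower under vehicle. Slc22a5, the carnitine carrier OCTN2, read 1956.2 and 2590.2 in Fxr-/- GW4064 livers and was called higher than in Fxr+/+ GW4064 livers, at 795.5 and 1040 (1.29, limma adjusted p = 0.0106).

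Export carriers were called in both directions. Of 8 tested, 1 was called lower (Abcc6) and 1 higher (Abcb11) in Fxr-/- under GW4064, and 1 lower (Abcc6) under vehicle. Adjusted for treatment, 1 was called lower (Abcc6) and 2 higher (Abcb11 and Abcc2). Over all genes, 9.14% were called lower and 5.47% higher under GW4064, and 5.00% and 1.85% under vehicle. Adjusted for treatment these shares were 12.8% and 11.2%. Beside such shares, 1 or 2 calls among 8 are no result about the exporters as a group. Abcb11, the bile salt export pump of the canalicular membrane, was called higher in Fxr-/- under GW4064 (1.23, limma adjusted p = 0.0107). It read 5159.9 and 7317.7 in Fxr-/- GW4064 against 2719.3 and 2511 in Fxr+/+ GW4064 livers. Under vehicle it read 2003.2 in the Fxr-/- pool against 1728.8 and 1790.3 in Fxr+/+ livers (0.19, not called). GW4064 against vehicle gave Abcb11 log2 differences of 1.61 in Fxr-/- and 0.57 in Fxr+/+, neither called. The difference between these Abcb11 effects was 1.04, also not called. Slc51b, which encodes the beta chain of the OSTalpha-OSTbeta bile acid exporter, read 880.6 and 956.9 in Fxr-/- GW4064 against 30.8 in Fxr-/- vehicle livers, at least 23.2-fold higher (limma adjusted p = 0.0459). It read 719 and 294.7 in Fxr+/+ GW4064 against 50.8 and 53.7 in Fxr+/+ vehicle livers (log2 difference 2.81, limma adjusted p = 0.134). The log2 difference of Slc51b in Fxr-/- was 4.32, and the difference between the 2 effects was 1.51, which was not called.

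Sex-dependent genes were listed because Slco1a1 is male-predominant. Of 13 tested male-predominant genes, 13 of 13 had values below 0 for GW4064 in Fxr+/+ with a median of -0.68 beside -0.01 over all genes, though 0 were called. For GW4064 in Fxr-/- 7 of 13 were below 0 with a median of -0.01 beside 0.01, and 0 were called. In Fxr-/- against Fxr+/+, 2 were called lower under GW4064 (Cyp2d9 and Serpina12), 3 under vehicle (Cyp7b1, Cyp2d9 and Hsd3b5) and 5 adjusted for treatment, where 9.14%, 5.00% and 12.8% of all genes were called lower. Of 7 tested female-predominant genes, 1 was called higher with GW4064 in Fxr+/+ (Cyp2b13), where 0.0102% of all genes were. In Fxr-/- against Fxr+/+, 3 were called higher under vehicle (Cyp2b9, Acot3 and Hamp2), where 1.85% of all genes were. Under GW4064, 2 were called higher (Cux2 and Acot3) and 2 lower (Cyp2b9 and Cyp2b13), where 5.47% and 9.14% of all genes were. Of 18 acute phase genes, 1 was called higher (Itih3) and 1 lower (Saa2) in Fxr-/- under GW4064. Under vehicle, 1 was called higher (Fgb, within the background range) and 1 lower (Saa2). Beside the same shares of all genes, these acute phase counts under each treatment are no result about that list. Adjusted for treatment, 3 of the 18 were called higher and 4 lower, where 11.2% and 12.8% of all genes were. The median of the list was then 0.11 beside 0.06 over all genes, so these calls shared no direction.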

How the data were processed

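Liver RNA of 8 pools was hybridised to Illumina arrays, and the authors deposited 1 value per probe and array for 25697 probes. In 7 columns the deposited values are an intensity on a linear scale. The values themselves show them to be background-subtracted (31.5% to 31.6% below 0) and quantile normalized (sorted columns differ by at most 0.5), and the software is not given in the sources used. Fxr-/- vehicle replicate 2 was left out, since its deposited values were whole numbers from 14 to 139 of unknown unit, whose Spearman correlations with the other arrays reached 0.0559 at most. No detection p-values were used.

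Probes were named through the platform annotation (23978 with 1 symbol, 1719 with none), and the 8 carrier probes matched RefSeq by Entrez identifier. Signals became log2(max(signal, 0) + 16). Probes above their array's median on at least 2 arrays were kept (14041), and the brightest stood for its gene. All 7 arrays entered 1 limma 3.58.1 fit (R 4.3.3), with a cell-means or an additive design (3 and 4 residual degrees of freedom), two-sided with Benjamini-Hochberg adjustment. Fold changes on this scale understate those of dim genes, and the number of arrays limits the precision. An "at least" fold sets signals under 39.5 to 39.5 and takes no account of the spread between arrays. The fit was tested on simulated data. Same-numbered arrays deviated together (r = 0.233, 0.375 and 0.242 between groups over 9766 genes), so fits with the replicate number as a block stand beside the results they change. Other alternatives were the normalization, offset, filter, choice of probe, variance model, arrays in the fit and leaving out each array.

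The carriers and gene lists were chosen with earlier results of these data known. Named were the carriers, Nr1h4, the 3 genes most correlated with each, listed genes past the threshold or otherwise the 2 with the smallest p, and Slc51b, Abcb11 and Cyp7a1. Aspdh, Mfsd2a, Pon1, Cyp3a11, Sult1a1 and Man1a were picked for values among the correlated genes, and Nr1i2 and Nr0b2 for their known role. Figures were drawn with matplotlib 3.10.9.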

Additional observations from a re-analysis of the deposited data

How the results depend on the processing

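Slco2b1 was called lower in Fxr-/- in each genotype comparison under every alternative run, with log2 differences from -4.12 to -3.59 under GW4064, -3.41 to -3.12 under vehicle and -3.71 to -3.43 adjusted for treatment. The count of carriers called under GW4064 was 2, and it became 1 with an offset of 1, with no filter and with the stricter filter, 4 with the replicate block, and 1 to 3 when an array was left out. Under vehicle it was 1, and it became 2 with a prior following the mean and with the replicate block, and 1 to 2 with an array left out. Adjusted for treatment it was 4, and it became 1 with no filter, 2 with the stricter filter, which by construction leaves out dim carriers, and 2 to 4 with an array left out. The 4 counts of carriers for GW4064 stayed at 0 in every alternative run. The dim carriers set these counts: Slc10a1 under GW4064 had limma adjusted p of 0.0740 with an offset of 1 and 0.195 with no filter, and adjusted for treatment 0.108 with no filter, as did Slco1a4 with 0.120 and Slc22a7 with 0.0525. Slco1a4 under vehicle had 0.0486 with the prior following the mean, and 0.0302 without either Fxr-/- GW4064 array.

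The replicate block changed the calls of Slco1a4 and Slco1b2 given with them and no other call of a carrier, and it turned Slco1b2 under vehicle to -0.40. Leaving out 1 array at a time also turned values that were not called. Slco1b2 ran from -1.53 to 0.085 under GW4064, -0.40 to 0.895 under vehicle, -0.64 to 0.17 adjusted for treatment and -0.65 to 0.64 for GW4064 in Fxr+/+. It was above 0 under GW4064 without Fxr-/- GW4064 replicate 2. For GW4064 in Fxr+/+, Slco2b1 ran from -0.084 to 0.21 and Slc22a7 from -0.060 to 0.14. Slc22a7 ran from -0.086 to 0.27 for GW4064 in Fxr-/-, from -0.0013 to 0.12 adjusted for genotype and from -0.13 to 0.23 for the difference of the effects.

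The 2350 genes called adjusted for treatment were 1528 with no filter and 1438 to 2308 with an array left out. The 1427 under GW4064 were 383 with no filter, 925 with an offset of 1 and 499 to 1383 with an array left out. The 669 under vehicle were 397 with only the arrays compared and 405 to 643 with an array left out. GW4064 called 7 genes in Fxr-/-, against 361 with no filter, 55 with an offset of 1 and 0 to 14 otherwise. It called 2 in Fxr+/+ against 0 to 6, and 7 adjusted for genotype against 0 to 24. The difference of the effects called 0, against 303 with no filter and 12 with an offset of 1. The cause of these changes was not tested. Signals near or under 39.5 limit what can be said of Slco1a1, Slco1a4 and Slc10a1.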

Other observations

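Slco1a1, left out by the filter on dim probes, entered the fit without that filter. Its log2 differences were 0.61 for Fxr-/- against Fxr+/+ under GW4064 (limma adjusted p = 0.718), -0.02 under vehicle, 0.36 adjusted for treatment and -0.81 for GW4064 against vehicle in Fxr+/+. All of its signals were within the background range, so these values carry no direction.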
